A study of Mus musculus with 19 samples.

Results

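The regions described are the positions in the 3′ untranslated region (3′ UTR) of mouse genes at which the exome of A223 cells carried a called variant. They were chosen from the deposited variant table as every position whose effect annotation names a 3′ UTR variant and whose exome genotype is filled. The rule took 5784 of the 209790 exome calls. These were 5784 of the 19014 annotated 3′ UTR positions in the table, the other 13230 of which had no exome genotype. The annotated biotype was protein coding for 5614 calls, nonsense-mediated decay for 169 and polymorphic pseudogene for 1, and all were kept. A223 is a mouse squamous cell carcinoma line that the labels give as derived from C57BL/6. This strain was not checked against the variants called. The wider study transplanted it into mice to compare tumours that regressed with tumours that grew. The cells read here were grown in culture, with no treatment named. Their genomic DNA was captured with an exon array and sequenced in 1 library, and their polyA RNA was sequenced in 1 library. With 1 library of each there is no replicate check of any value, and no normal tissue of the same animal was used here, so inherited and tumour-acquired variants cannot be told apart. The intervals given below are 95% exact (Clopper-Pearson) intervals and cover counting error only.

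The 3′ UTR is the stretch of a messenger RNA between the stop codon and the polyA tail. It is transcribed but not translated, and it holds binding sites for microRNAs and RNA-binding proteins and the signals that set where the transcript is cut and polyadenylated. AU-rich elements, built around the core ATTTA in DNA letters, bind proteins of the ZFP36 and ELAVL families, and short-lived transcripts of growth factors, cytokines and immediate early genes are known for them. Because it is part of the mature RNA, a heterozygous position in a 3′ UTR lets transcripts of the 2 gene copies be told apart.

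The table gives a called genotype in DNA and in RNA and the number of RNA reads over the position. It gives neither reads per allele nor exome depth, so allelic expression could be read only from the RNA call. A heterozygous exome position called heterozygous in RNA is described as showing both alleles. One called homozygous for the variant in RNA is described as variant only. One with 20 or more RNA reads and no variant call is described as having no variant called, and for these the table does not separate reads of the reference allele alone from a call that was filtered out. Both of the last 2 kinds are counted as 1 allele in the RNA call.

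The marker lists gave a mixed picture of cell identity. RNA reads were 0 at all 15 exonic variant positions of Cdh1, the epithelial cadherin, and at all 8 of Dsg3 and all 9 of Dsp, which are desmosome proteins of keratinocytes. Itgb4, an integrin of basal keratinocytes, reached 139 reads, and Perp, a desmosomal membrane protein, reached 4 and Col17a1, a hemidesmosome collagen, 7. Of the 5 readable genes of the mesenchymal list, the matrix genes Fn1, Col1a1 and Col1a2 reached 1571, 707 and 641 reads, the surface protein gene Thy1 40 and the collagen gene Col3a1 10. The T cell and myeloid genes Cd3e, Cd8a and Itgam had 0. The other 14 of 20 keratinocyte genes, including the keratins and Trp63, had no exonic variant position and could not be read. The library is therefore called A223 and not squamous in what follows.

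The sequence context of a 3′ UTR call could be read only where RefSeq promoter sequence of GRCm38.p6 reached it, which was the case for 12 calls, and the reference allele matched in 12 of 12. Over all classes, the reference base equalled GRCm38.p6 at 2232 of 2232 exome substitutions inside such windows, and positions are given on that build. The examples below, on the transcript strand, show a pair of neighbouring homozygous changes and 1 heterozygous change that the RNA repeated. The changed base is in capitals, and positions such as c.*36 count bases past the stop codon. Each variant line puts 1 change on the reference sequence, so the overlapping Ndufa9 windows do not show its changes together.
Ndufa9 chr6:126821971-126821995, minus strand, reference: agtaaaagagtcActctattaaata
Ndufa9 with c.*36A>G: agtaaaagagtcGctctattaaata
Ndufa9 chr6:126821976-126822000, minus strand, reference: tgtgcagtaaaaGagtcactctatt
Ndufa9 with c.*31G>T: tgtgcagtaaaaTagtcactctatt
Hmgn3 chr9:83110925-83110949, minus strand, reference: agaaactgctcaAcccttcagctct
Hmgn3 with c.*29A>G: agaaactgctcaGcccttcagctct
Ndufa9, a subunit of mitochondrial complex I, was homozygous for both changes in the exome and in RNA, with 70 reads at c.*36A>G and 78 reads at c.*31G>T. Hmgn3, a nucleosome-binding protein, was heterozygous in both libraries with 33 reads. Motifs were searched on the transcript strand in both alleles. They were the polyadenylation hexamers AATAAA and ATTAAA, the AU-rich core ATTTA, the Pumilio motif TGTANATA and the seed matches of 13 mature microRNAs. Of the 12 readable calls, 0 made or removed any of them, a statement about these 12 windows alone.

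Insertions and deletions carry their own sequence in the table and can be printed without a genome. The alleles below are on the forward strand as deposited, where the lower-case first base is shared by both alleles and the capitals are the inserted or deleted bases. They were chosen as repeats that recur among 3′ UTR indels and as indels read in RNA.
Aaed1 chr13:64292036-64292056, deletion: aTGGTGCCTGGCATTTTGGTT
Gsr chr8:33697423, insertion: cTAAACACACACACA
Uhmk1 chr1:170193722, insertion: tCAAACAAACAAA
Bcl2 chr1:106543094-106543102, deletion: aTGTGTGTG
Notch2 chr3:98147532-98147537, deletion: aCGTCC
Mlec chr5:115147761-115147765, deletion: tTGTG
The 20-base deletion in Aaed1 was homozygous in DNA and in RNA at 318 reads. The 14-base insertion in Gsr, glutathione reductase, was homozygous in both at 111 reads, and the 8-base deletion of TG units in Bcl2, an inhibitor of apoptosis, was homozygous in both at 28 reads. Uhmk1, a kinase, was homozygous for a 12-base insertion of repeated CAAA units in the exome but heterozygous in RNA at 107 reads. The deletions in the receptor gene Notch2 (169 reads) and in the endoplasmic reticulum lectin gene Mlec (411 reads) were heterozygous in both libraries.

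The 5784 calls lay in 2179 genes, of which 1045 had 1 call and the median gene had 2. At the other end, 75 genes with 10 or more calls held 1167 calls. The 10 genes with the most calls differed in zygosity and in whether RNA could read them. Slc30a7, a zinc transporter of the Golgi, had 46 calls between 1656 and 3826 bases past the stop codon, 45 of them heterozygous, with 20 to 94 RNA reads. Mgat3, a glycosyltransferase that adds bisecting sugars to N-glycans, had 36 calls, 35 heterozygous, with 5 to 47 reads. Paqr8, a membrane progestin receptor, had 44 calls, 31 heterozygous and 13 homozygous, with no position above 18 reads. Ppp1r3b, a glycogen-targeting subunit of protein phosphatase 1, had 31 calls and Acot11, an acyl-CoA thioesterase, had 22, and every one of these was homozygous. Rnf222, a RING finger gene, had 23 calls, all heterozygous, at 0 reads. Gm14443 had 36 calls, Nxpe5 34, Gm21967 31 and Gm10654 22. These last genes belong to families of similar genes or predicted genes, and the placement of reads in them is uncertain.

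The exome genotype was heterozygous at 2965 positions, homozygous for the variant at 2815 and a pair of different variants at 4. The heterozygous share of the 3′ UTR calls was 51.3% (interval 50 to 52.6%, 2965 of 5780), against 61.6% (60.7 to 62.4%, 7855 of 12759) for synonymous calls, which lie in coding sequence and leave the protein unchanged. Over exome calls of every class the heterozygous share was 40.1%. The difference of -10.3 percentage points passed a two-sided Fisher's exact test, adjusted p = 9.20e-39 by Benjamini-Hochberg over 5 comparisons. Calls in 1 stretch of chromosome can be linked and are not separate observations, so the p-values of these 5 tests are too small. With 1 call per gene the difference was -9.29 points, the call with the most RNA reads being kept here and below. In the 1437 genes that hold both classes it was -5.52 points, and within 200 bases of the stop codon -4.52 points. Missense calls were heterozygous at 64.1% and 5′ UTR calls at 49.6%.

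Chromosomes spread far more widely than the classes did. On chromosome 14, 96.5% of 255 3′ UTR calls were heterozygous, and on chromosome 19, 89.7% of 184. Chromosome 8 held the most calls, 659, of which 7.13% were heterozygous, against 12.3% of its synonymous calls. Chromosome 7, with 602 calls, had 22.6% heterozygous 3′ UTR calls and 28.2% heterozygous synonymous calls. The 3′ UTR share was below the synonymous share on 19 of 20 chromosomes. Across the 20 chromosomes the shares of both classes followed each other, with Pearson r = 0.926 and Spearman rho = 0.958, given as a description because both classes come from the same library and the same chromosomes. Chromosome 12 was the exception. There 29.0% of 131 3′ UTR calls were heterozygous, against 3 of 243 synonymous calls (1.23%). Of its 38 heterozygous 3′ UTR calls, 36 lay in Gm8300, Cinp, Gm5662 and Gm2016, and among the remaining 95 calls of the chromosome 2 were heterozygous.

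**Figure D1:**
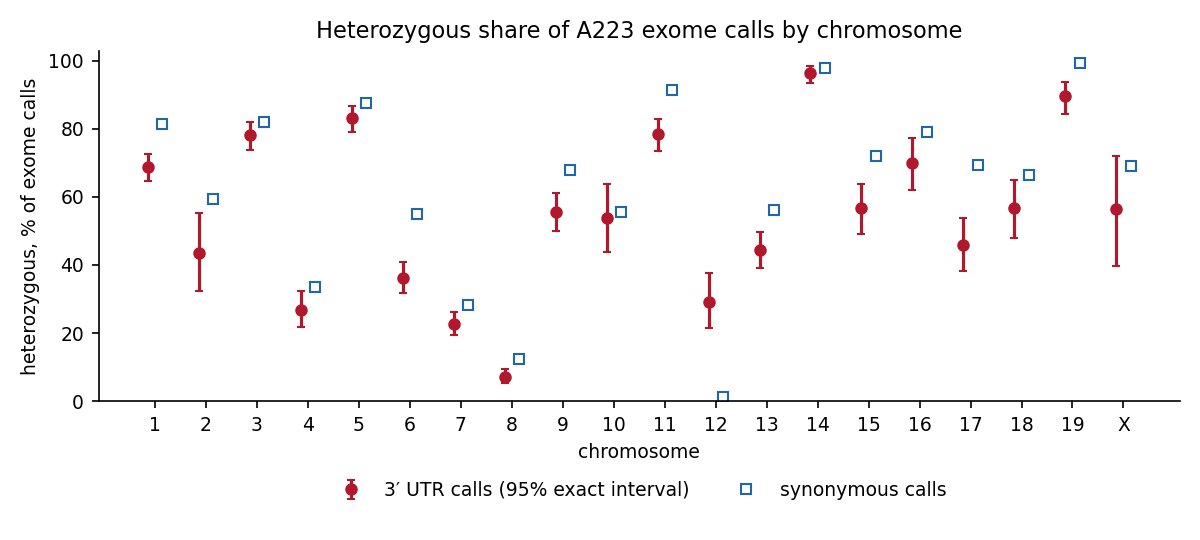
Percent of exome calls that were heterozygous on each chromosome, for 3′ UTR calls (filled points, bars the 95% exact interval) and synonymous calls (open squares). Chromosome 8 lies lowest for 3′ UTR calls at 7.13%, chromosome 14 highest at 96.5%, and chromosome 12 is the single chromosome where the 3′ UTR share is above the synonymous one.

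The calls clustered near the stop codon. Their median distance was 138 bases, with the 25th percentile at 58 and the 75th at 382 bases, whereas the 3′ UTR positions with no exome call had a median distance of 1143 bases. In the first 50 bases the exome held 92.7% of the annotated 3′ UTR positions of the table, and beyond 1000 bases it held 10.4%. Zygosity moved with this distance. Of calls within 50 bases of the stop codon 62.3% were heterozygous, a share close to the 61.6% of synonymous calls. The share was 59.9% at 51 to 100 bases, 50.1% at 101 to 200, 40.3% at 201 to 500, 41.6% at 501 to 1000 and 42.7% beyond 1000 bases. The part that exome depth has in this could not be tested, since the table does not give it.

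**Figure D2:**
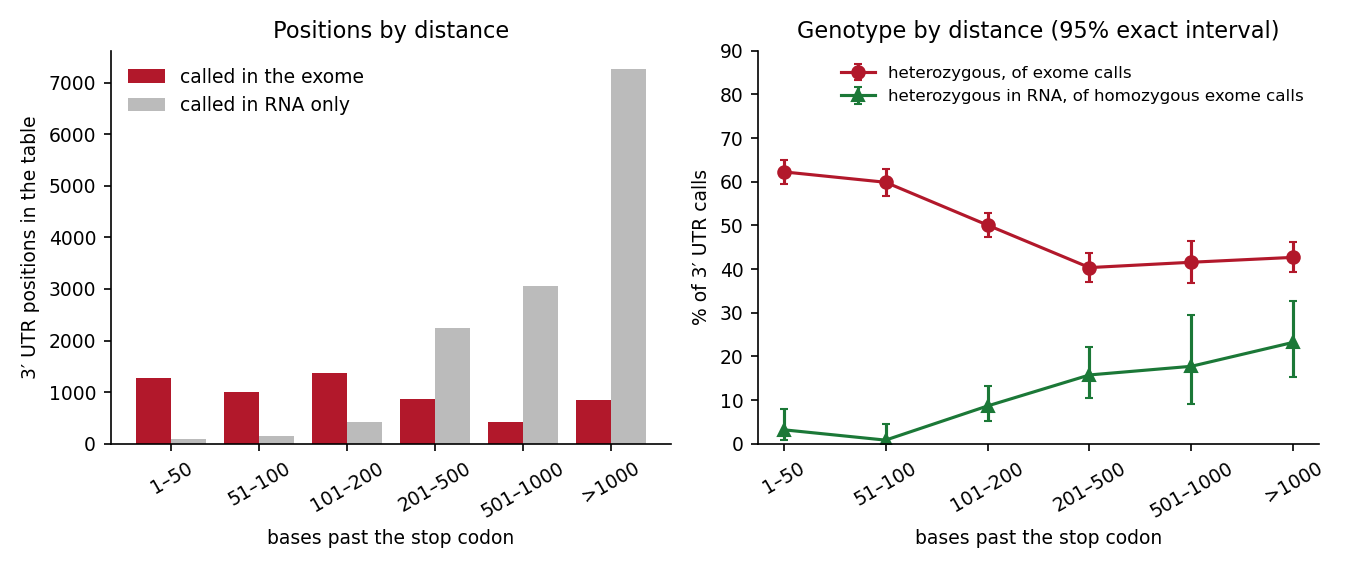
Left, number of annotated 3′ UTR positions in each range of bases past the stop codon, for positions called in the exome and positions called in RNA alone. Right, percent of 3′ UTR exome calls that were heterozygous (circles) and percent of homozygous exome calls with 20 or more RNA reads that were heterozygous in RNA (triangles), with 95% exact intervals. The first share is 62.3% within 50 bases and 42.7% beyond 1000, while the second is 3.20% and 23.2%.

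Substitutions made up 4789 of the calls and indels 995, an indel share of 17.2% (interval 16.2 to 18.2%), against 2.60% (2.39 to 2.82%, 559 of 21508) of coding calls. The difference of 14.6 points had an adjusted p of 4.35e-312 (two-sided Fisher's exact test). Over exome calls of every class the share was 16%, and set against all other exome calls the 3′ UTR share was 1.25 points higher (p = 0.0115, two-sided Fisher's exact test). The indel share of 3′ UTR calls was thus set apart from coding sequence much more than from the rest of the exome calls.

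Among the 992 indels with a single variant allele, 481 were insertions and 511 deletions, and the median length was 2 bases. Indels of 1 base numbered 435 (43.9%), 217 insertions and 218 deletions, and the base was A or T in 277 of them. Of the 183 indels of 2 bases, 46 were CA, AC, TG or GT. Duplications of the neighbouring sequence accounted for 309 of the insertions (64.2%), and 550 of the indels (55.4%) consisted of 1 kind of base. A length divisible by 3 was found for 160 of 992 3′ UTR indels (16.1%, interval 13.9 to 18.6%), against 244 of 558 coding indels (43.7%, 39.6 to 48.0%). The longest were a 130-base deletion in Gm7293, a 104-base insertion in Pnpla3, a lipid droplet hydrolase, and a 90-base deletion in Ttc9b, followed by a 73-base insertion in Gm21967 and a 66-base deletion in Gm7293. RNA reads were 0 at 4 of these 5 and 19 at the Gm21967 insertion. The inserted or deleted bases held ATTTA in 2 of 992 indels, of which 185 were long enough to hold it. These 2 included a 35-base deletion in Spag16, a sperm flagellum gene. Neither polyadenylation hexamer was in any of the 992 alleles, of which 151 were long enough to hold one, and the Pumilio motif was in 0, with 106 long enough.

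**Figure D3:**
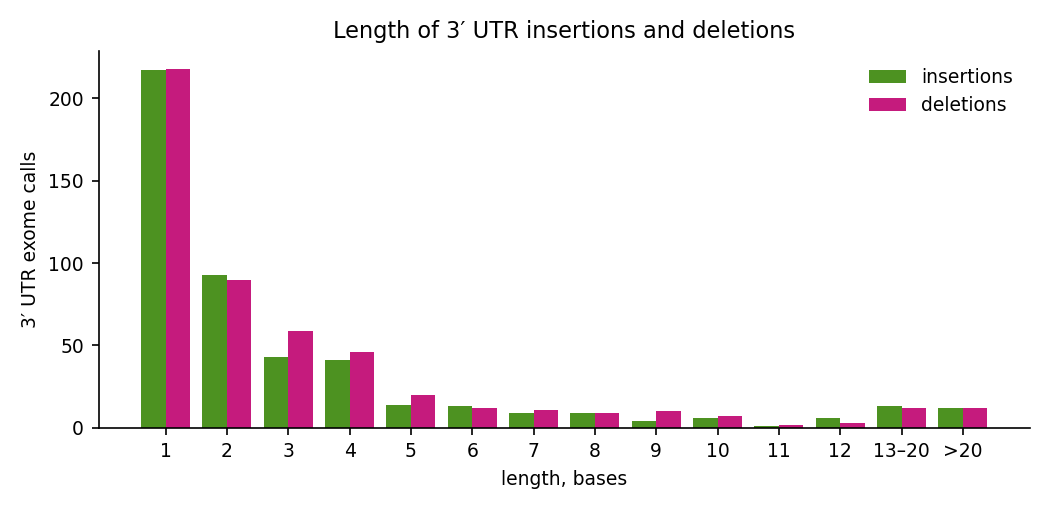
Number of 3′ UTR exome insertions and deletions by length in bases. Lengths of 1 base lead with 217 insertions and 218 deletions. Indels of 3 bases (43 and 59) are fewer than those of 2 bases (93 and 90), while those of 12 bases (6 and 3) exceed those of 11 bases (1 and 2).

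On the transcript strand, 70.2% of 3′ UTR substitutions were transitions (interval 68.9 to 71.5%, 3361 of 4789), against 82.3% of synonymous ones (81.6 to 82.9%, 10499 of 12760). The 4 transitions were nearly even in 3′ UTRs, with C-to-T at 17.3%, T-to-C at 17.5%, A-to-G at 17.96% and G-to-A at 17.4%. Among synonymous calls C-to-T made up 24.98% and T-to-C 23.9%, against 16.3% for A-to-G and 17.1% for G-to-A. A change counts as synonymous only where the amino acid stays the same, which limits the base changes that class can hold. The difference between the classes was not tested and is not read as a trait of 3′ UTR substitutions.

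RNA reached a limited share of the calls. No read covered 2450 positions (42.4%), 1 to 19 reads covered 1530, and 20 or more reads covered 1804 positions in 834 genes, whose median depth was 60 reads. The share at 20 or more reads was 31.2% (interval 29.997 to 32.4%), against 31.9% (31.1 to 32.7%) of synonymous calls, a difference of -0.684 points that did not pass the test (adjusted p = 0.447, two-sided Fisher's exact test). Over exome calls of every class 6.82% had this depth. At these positions the RNA genotype equalled the exome genotype for 82.5% of 3′ UTR calls (80.7 to 84.3%, 1489 of 1804) and for 82.2% of synonymous calls (81.0 to 83.4%, 3343 of 4067). The difference of 0.341 points did not pass the test (adjusted p = 0.767, two-sided Fisher's exact test).

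The like totals were made up differently. Among heterozygous exome calls, 822 of 1023 3′ UTR positions (80.4%) were heterozygous in RNA, against 1911 of 2560 synonymous positions (74.6%). No variant was called at 180 3′ UTR positions (17.6%) and the variant alone at 21 (2.05%), against 560 (21.9%) and 89 (3.48%) synonymous positions. One allele was thus called at 19.6% of heterozygous 3′ UTR positions (interval 17.3 to 22.2%), against 25.4% of synonymous ones (23.7 to 27.1%), and at 45.3% over exome calls of every class. The difference of -5.70 points had an adjusted p of 4.31e-04 (two-sided Fisher's exact test). It was -11.7 points with 1 call per gene, a choice made by RNA depth because the deepest call was kept. The difference did not pass Fisher's exact test at 50 or more reads, where it was -2.30 points (p = 0.288). At 100 or more reads it was -0.0207 points (p = 1, Fisher's exact test). Depth moved with the call within the 3′ UTR positions too. Of heterozygous substitutions, 86.3% showed both alleles at 20 to 49 reads, 83.6% at 50 to 99, 72.5% at 100 to 199 and 73.9% at 200 or more. Heterozygous indels were heterozygous in RNA at 116 of 155 positions (74.8%).

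Homozygous exome calls differed in the other direction. Of 779 such 3′ UTR positions, 666 were homozygous in RNA (85.5%), 83 were heterozygous (10.7%, interval 8.58 to 13.04%) and 30 had no variant called (3.85%). Of 1507 homozygous synonymous positions, 1432 were homozygous in RNA (95.02%), 9 were heterozygous (0.597%, 0.273 to 1.13%) and 66 had no variant called (4.38%). Over exome calls of every class 8.94% of homozygous positions were heterozygous in RNA and 13.1% had no variant called. With 1 call per gene, 58 of 408 3′ UTR positions (14.2%) and 7 of 555 synonymous positions (1.26%) were homozygous in the exome and heterozygous in RNA. This pattern was noticed in the data and was not tested.

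The positions homozygous in DNA but heterozygous in RNA lay farther from the stop codon, at a median distance of 282 bases, against 150 bases for those homozygous in both. Within 100 bases of the stop codon, 5 of 245 homozygous positions were heterozygous in RNA (2.04%, interval 0.666 to 4.70%). Beyond 200 bases the number was 60 of 326 (18.4%, 14.3 to 23.05%). The zygosity of other calls in the same genes is given as counts, without a test. The groups of genes compared next were not matched by chromosome. Homozygous 3′ UTR calls were unevenly spread, with 612 of 659 calls on chromosome 8 and 9 of 255 on chromosome 14. The part of this in the counts was not tested. Of the 64 genes with such a position, 53 (82.8%, 71.3 to 91.1%) had at least 1 heterozygous exome call in their exons, against 45 of the 332 genes (13.6%, 10.1 to 17.7%) whose homozygous 3′ UTR calls were read as homozygous and never as heterozygous in RNA. An exonic exome call other than a homozygous 3′ UTR call was present in 58 of the 64 genes and in 258 of the 332. The remaining genes of each group had no such call, heterozygous or homozygous, and are counted in the shares above. Vegfa, the angiogenic growth factor, had heterozygous calls and homozygous calls that were heterozygous in RNA within 1 UTR. Its calls c.*84C>T and c.*134C>T were heterozygous in the exome and in RNA at 1336 and 1042 reads, and c.*946T>C and c.*955C>T were homozygous in the exome and heterozygous in RNA at 1091 and 1028 reads. In Hk2, hexokinase 2, c.*3C>T was heterozygous in both libraries at 134 reads, while c.*1117T>C and c.*1119T>G were homozygous in the exome and heterozygous in RNA at 127 and 128 reads. P2rx7, an ATP-gated ion channel, had 12 heterozygous calls that showed both alleles, and its 3 homozygous calls with enough reads were all heterozygous in RNA.

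The deepest positions at which DNA was homozygous and RNA carried no variant were in Slc30a4, a zinc transporter. Its calls c.*3310A>T, c.*3272T>C, c.*3266A>T and c.*3470G>C had 1045, 994, 936 and 893 RNA reads. The deepest positions homozygous in both libraries were in Lars2, the mitochondrial leucyl-tRNA synthetase (c.*262T>G, 1516 reads), in the tropomyosins Tpm4 (c.*294T>G, 1509 reads) and Tpm1 (c.*30C>T, 1460 reads), in Shmt2, a mitochondrial enzyme of one-carbon metabolism (c.*79T>C, 1083 reads), and in Ybx3, a cold shock domain protein that binds RNA (c.*247G>A, 1081 reads).

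Allelic calls ran together within genes. Of 478 genes with a heterozygous call at 20 or more reads, 397 showed both alleles at every such call, 66 (13.8%) showed 1 allele at every call and 15 were mixed. The 201 positions with 1 allele lay in 81 genes. Among the 94 genes with 3 or more such calls, 63 showed both alleles throughout (328 calls), 20 showed 1 allele throughout (104 calls) and 11 were mixed. Neighbouring calls within the length of a read can be covered by the same reads, so the calls of 1 gene are not separate observations.

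The gene with both alleles at the greatest depth was Ctsl, a cathepsin and lysosomal protease, with 3690 reads at c.*32A>G. Cyb5r3, cytochrome b5 reductase, had 1363 reads at c.*9C>T, and Gsto1, a glutathione transferase, had 1327 reads at c.*61G>A. Gja1, the gap junction protein connexin 43, had 1209 reads at the 1-base deletion c.*776delT. Anxa5, a phospholipid-binding annexin, showed both alleles at 6 of 6 calls with 980 to 1153 reads. Rplp1, a ribosomal stalk protein, had 973 reads at c.*18G>A, Scpep1, a serine carboxypeptidase, 909 reads at c.*337A>G, and Aprt, the adenine salvage enzyme, 900 reads at c.*128T>G. Of the 10 genes with 10 or more heterozygous calls at 20 or more reads, 7 showed both alleles throughout and 3 were mixed. Those with both alleles included Mgat3 with 25 of 25 calls at 21 to 47 reads, Sh3pxd2a, a podosome scaffold, with 11 of 11 at 72 to 219 reads, and Pigm, a mannosyltransferase of GPI anchor synthesis, with 11 of 11 at 31 to 52 reads. The mixed genes were Slc30a7, with both alleles at 40 of 45 calls, Slc7a11, a cystine transporter, with 9 of 10, and Klra4, a natural killer cell receptor gene, with 7 of 15. At the other calls of Klra4 no variant was called at 7 and the variant alone at 1.

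Of the 20 genes with 1 allele throughout, 16 had no variant called at any call, Atic and Lipo1 had the variant only, and Arid5b and Lars2 had both kinds. Ppp2r5a, a regulatory subunit of protein phosphatase 2A, had 8 heterozygous calls between 4 and 122 bases past the stop codon, and no variant was called at any of them despite 118 to 177 reads. Atic, an enzyme of purine synthesis, had 4 calls between 101 and 129 reads, all variant only. Kars, the lysyl-tRNA synthetase, had 5 calls with no variant at 134 to 442 reads. Ube2k, a ubiquitin-conjugating enzyme, had 5 within 25 bases at 175 to 216 reads. Mdm4, an inhibitor of p53, had 5 within 14 bases at 97 to 99 reads, and 4 of these were indels. Hnrnpr, an RNA-binding protein, had 5 at 114 to 160 reads, Gcsh, a subunit of the glycine cleavage system, 4 at 120 to 140, and Rnf121, a RING finger protein, 5 at 97 to 149. Ubp1, a transcription factor, had 6 at 82 to 139 reads and Evi5, a cell cycle regulator, 3 at 102 to 139. Fewer reads covered Klra6, a natural killer cell receptor gene with 9 calls at 21 to 76 reads, Cinp, which binds the kinase CDK2, with 7 at 36 to 42, Taf5l, a subunit of a histone acetyltransferase complex, with 5 at 21 to 55, Bpnt1, a phosphatase, with 4 at 40 to 46, Terf1, a telomere-binding protein, with 4 at 26 to 46 and Fam220a with 3 at 38 to 49. BC003331 had 5 at 61 to 113 reads. Arid5b had 6 calls at 66 to 99 reads, 4 with no variant and 2 variant only, and Lipo1 had 5 variant-only calls at 24 to 66 reads. Homozygous exome calls at 20 or more reads were present in 5 of these 20 genes, and of these 16 calls 7 were homozygous in RNA, 2 were heterozygous and 7 had no variant called. In BC003331 no variant was called at 4 of 4 homozygous positions (37 to 109 reads), although the exome gave no reference allele there. Terf1 had 3 homozygous positions, 2 of them heterozygous in RNA and 1 with no variant called. Klra6 had 5, of which 3 were homozygous in RNA and 2 had no variant called. In these genes the RNA call differed from the exome at positions where the exome showed a single allele.

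**Figure D4:**
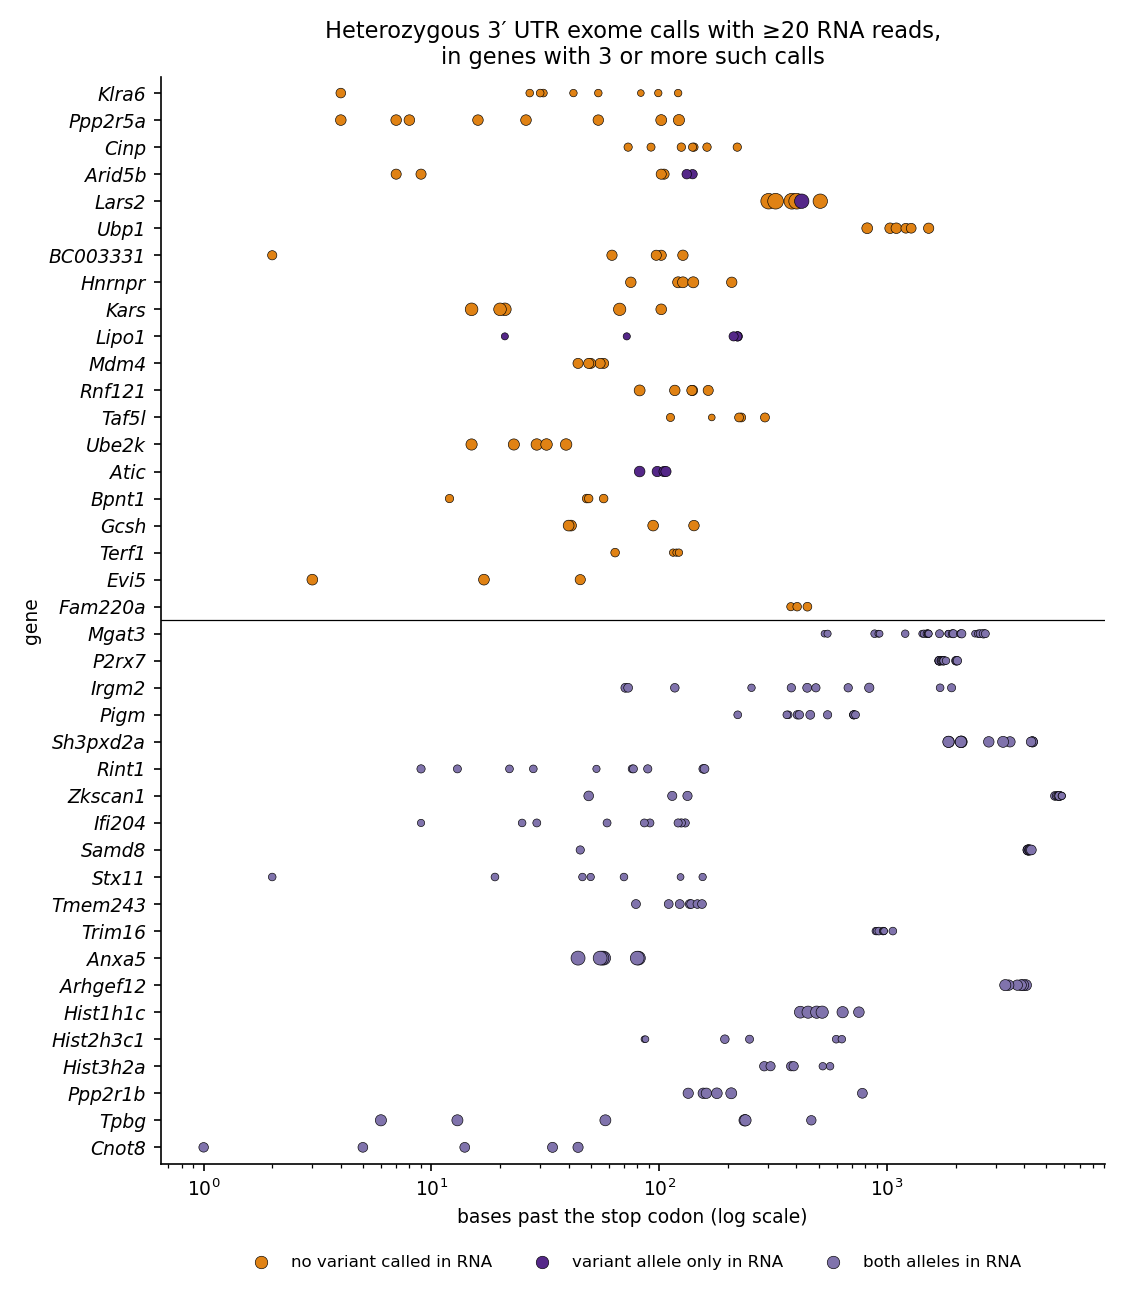
Each row is a gene with 3 or more heterozygous 3′ UTR exome calls at 20 or more RNA reads, and each point is a call at its distance past the stop codon (log scale), with larger points for more RNA reads and the colour giving the RNA call. The 20 genes with 1 allele throughout are above the line, and the 20 genes with the most calls among those with both alleles throughout are below it.

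The deepest positions with 1 allele were in Lars2 (c.*382C>T, 4804 reads, no variant called), whose 6 such calls had 1552 to 4804 reads. Gm10076 followed with 2363 reads at c.*8T>C, and Gadl1, a decarboxylase gene, with 2195 reads at c.*4C>T. Psat1, an enzyme of serine synthesis, had 1052 reads at c.*163G>A, S100a11, a calcium-binding protein, 860 at c.*108A>G, and Kif1c, a kinesin, 728 at c.*92C>T. Cnn3, a calponin, had 619 at c.*16C>T, Hnrnpu, an RNA-binding nuclear matrix protein, 549 at c.*154delT, Hmgn1, a nucleosome-binding protein, 498 at c.*118G>A, and Anp32b, a histone chaperone, 488 at c.*301C>G. No variant was called in RNA at any of these 10. Klra4, Klra6, Gm10076 and Hmgn1 have near copies elsewhere in the genome, so which copy their reads came from is uncertain. The other genes with 1 allele were not checked for near copies. The part of near copies in the calls was not tested for any gene. RNA depth in Lars2 was uneven over short distances. Its heterozygous 22-base insertion at c.*509 had 1552 reads, while its heterozygous 14-base insertion at c.*511 had 0. Where the reads at Lars2 positions came from, the homozygous c.*262T>G included, is therefore uncertain and was not tested.

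The genes with 1 allele throughout had a median of 4.90 calls per 100 bases of genome, against 2.54 in the genes with both alleles, while the median span from first to last call was 140 bases against 152. The median of the highest read number per gene was 121 against 66. They lay on 10 chromosomes, and the genes with both alleles on 16. These values describe genes sorted by their RNA call and carry no test, and the part of call density and depth in the calls was not tested.

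Coding positions of the same genes gave a second reading that the rule had not used, although from the same libraries and haplotypes. Heterozygous 3′ UTR and coding calls at 20 or more reads were both present in 311 genes. Of the 38 genes with 1 allele at every 3′ UTR call, 28 (73.7%) also had 1 allele at every coding call, 6 had both alleles and 4 were mixed. Of the 263 genes with both alleles in the 3′ UTR, 15 (5.70%) had 1 allele at every coding call, 171 (65.0%) had both and 77 (29.3%) were mixed. In 21 of the 28 genes every call in both regions had the same kind of 1-allele call. Ppp2r5a had no variant called at 20 of 20 coding positions with 64 to 108 reads, Bpnt1 at 7 of 7 and Taf5l at 7 of 7. Atic was variant only at 3 of 3 coding positions with 64 to 152 reads, and Ifi202b, an interferon-inducible gene, was variant only at 2 of 2 3′ UTR and 9 of 9 coding positions. Kars had 10 coding positions with no variant and 2 with the variant only. Terf1 went the other way, with both alleles at 6 of 6 coding positions (22 to 39 reads) and no variant at its 4 3′ UTR positions. Kif1c likewise had both alleles at 2 of 2 coding positions, and Gcsh at 2 of 4.

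By chromosome, positions with 1 allele were unevenly spread. No variant or the variant alone was called at 16 of 23 heterozygous 3′ UTR positions on chromosome 8 (69.6%), 15 of 35 on chromosome 7 (42.9%), 8 of 19 on chromosome 4 (42.1%), 25 of 60 on chromosome 6 (41.7%) and 38 of 96 on chromosome 1 (39.6%). The synonymous shares of these chromosomes were 50% on 8, 33.1% on 7, 16.7% on 4, 34.8% on 6 and 33.2% on 1. The positions sat in few genes. They lay in 5 of the 11 genes with such a 3′ UTR position on chromosome 8, in 3 of 13 on chromosome 7, in 2 of 10 on chromosome 4, in 7 of 26 on chromosome 6 and in 12 of 34 on chromosome 1. These 5 chromosomes include 8, 7 and 4, the 3 autosomes with the lowest heterozygous share of 3′ UTR calls. Shares were lower on chromosome 3 with 15 of 133 (11.3%), which lay in 10 of 49 genes, on chromosome 11 with 6 of 84 (7.14%), on chromosome 15 with 2 of 50 (4%) and on chromosome 18 with 1 of 37 (2.70%). On chromosome 17 it was 0 of 38, with an exact interval of 0 to 9.25%, and 3 counts would be 7.89%. On chromosome 1, 30 positions had no variant and 8 the variant only. Chromosome 19 had 3 with no variant and 5 with the variant only, among 69. Chromosome 12 had 1 allele at 8 of 8 positions, and 7 of these were in Cinp. The X chromosome had 2 positions with enough reads, both variant only. Among the 17 chromosomes with 10 or more such positions, the share for 3′ UTR calls was lower than that for synonymous calls on 11. The shares of both classes over these 17 had Pearson r = 0.650 and Spearman rho = 0.495, given as a description because both classes share libraries, genes and depth.

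**Figure D5:**
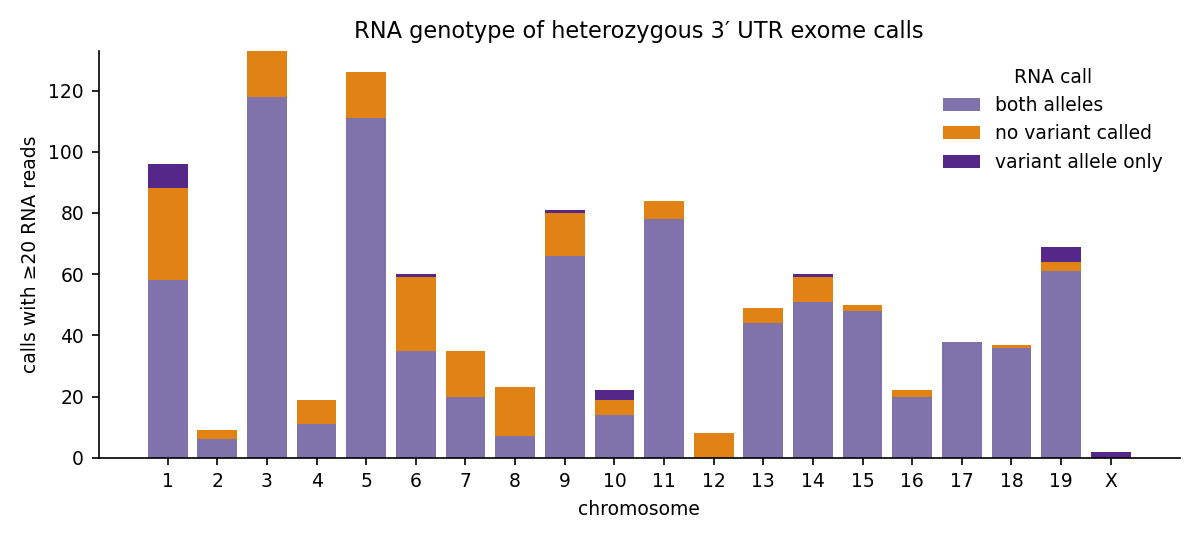
Number of heterozygous 3′ UTR exome calls with 20 or more RNA reads on each chromosome, divided by the RNA call into both alleles, no variant called and variant allele only. Chromosome 3 has 15 of 133 with 1 allele, chromosome 1 has 38 of 96, and chromosome 17 has 0 of 38.

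Lists of genes in pathways of interest are described by their counts, without a test. Of the 7206 genes with any exonic position in the table, 2179 (30.2%) had a 3′ UTR exome call. In the list of AU-rich transcripts, 10 of 31 genes had an exonic position and 5 had a 3′ UTR call. These were Vegfa and Bcl2, described above, Hif1a, the oxygen-regulated transcription factor (c.*36dupT, homozygous in both at 4 reads), Plaur, the urokinase receptor (c.*52C>G, homozygous in both at 63 reads), and Csf2, the cytokine GM-CSF, with 2 heterozygous calls at 1 and 2 reads. The squamous carcinoma list had calls in Notch2, in Ajuba, a LIM domain scaffold (c.*19A>G, heterozygous in both at 112 reads), and in Pik3ca, a kinase subunit (a homozygous 6-base duplication at 5 reads). Antigen presentation had 1 of 6, Tapbpl, a peptide editor of class I molecules (c.*258C>T, homozygous in both at 24 reads). The factors of 3′ end formation and mRNA decay had 1 of 13, Cnot1, the scaffold of the CCR4-NOT deadenylase (c.*180delT, homozygous in both at 46 reads). The interferon list had 0 of 6 and the imprinted genes 0 of 2. Vegfa, Notch2 and Ajuba had heterozygous 3′ UTR calls at 20 or more reads in these lists, and all of these calls showed both alleles.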

How the data were processed

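Exome DNA and polyA RNA of A223 cells in culture were read in 1 library each. Per the submitters' processing notes the reads went through BWA and GATK, whose versions and settings are not given in the sources used here, nor is the genome build, which was settled from reference bases. The variant table deposited by the authors holds genotypes and, per the file headers, RNA depth as an unnormalised count of reads per position. Its copies for DNA and RNA were identical and 1 was used. The single-cell table was not used here. Calls were sorted by annotated effect. Shares carry Clopper-Pearson intervals, and 5 comparisons used two-sided Fisher's exact tests with Benjamini-Hochberg adjustment at 0.05 (Python 3.11.15, scipy 1.17.1), tested on simulated data. RNA genotypes were read at 20 or more reads, the minimum behind every RNA share.

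The members, gene lists and comparisons were chosen with earlier results of these data known. Named were the 10 genes with the most calls, the 10 deepest with both alleles, the 10 deepest with 1 allele, all genes with 3 or more calls all of 1 allele, the 5 deepest homozygous genes, the 5 deepest discordant homozygous calls, the 5 longest indels and list genes with a call. Hk2, P2rx7, Ifi202b, Sh3pxd2a, Pigm, Slc7a11, Klra4 and Spag16, and the genes whose sequence is printed, were named after their values were seen. The planned motif search was limited to the 12 readable windows and the indel alleles. Of 2179 gene IDs, 2169 matched the symbol table. A few named genes and calls, and counts that need them, are not reported here.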

Additional observations from a re-analysis of the deposited data

How the results depend on the processing

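The 5 comparisons and the motif count were recomputed in 43 other settings, among them 1 call per gene, substitutions alone, autosomes alone, no chromosome 8, other read minimums and, chosen after seeing the data, genes with both classes and 3′ UTR calls within 200 bases of the stop codon. The heterozygous share stayed lower and past the threshold, at -10.3 to -4.52 points, and the indel share stayed higher, at 1.25 to 15.0 points. The share with 1 allele kept its call at -11.7 to -4.07 points, except at 50 or more reads (-2.30) and 100 or more (-0.0207); the cause was not tested. The difference in the share with the exome genotype in RNA turned negative at 10 or more reads (-0.0720), 50 or more (-1.14), 100 or more (-1.73) and in genes with both classes (-0.585), and with 1 call per gene it was 4.32 points (p = 0.0108, Fisher's exact test). The difference in the share of positions with enough RNA reads turned positive within 200 bases (0.335), at 10 or more reads (0.250) and at 50 or more (0.0388), and in genes with both classes it was -4.62 points (p = 1.02e-06, Fisher's exact test). The cause of these moves was not tested. Motif changes were 0 with both hexamers in the 12 readable windows. The setting with AATAAA alone could then only give 0 and adds no check. No paired analysis was possible because there is 1 exome and 1 RNA library. Depth limits the RNA results to 1804 of 5784 positions.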
